A study of Homo sapiens with 6 samples.

Results

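A set of 10 genes of cell surface and granule proteoglycans was followed in HL-60 cells given amiodarone. They are the syndecan genes SDC1, SDC2, SDC3 and SDC4, the syndecan-binding adaptor gene SDCBP, the serglycin gene SRGN, and the heparan sulfate genes EXT1, EXT2, NDST1 and HPSE. The members were taken by gene symbol from a table of 17911 genes, and all 10 were found in it. SDC1 was chosen by its lower value after amiodarone in these libraries, and the other members were listed by name beside it. The values of SDC1 are therefore a description, with no test. HL-60 is a human cell line from a promyelocytic leukaemia. Cells given 10 uM of the antiarrhythmic drug amiodarone for 24 h gave 3 libraries, and 3 further libraries are labelled control, with no vehicle named. All are of this one line.

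Proteoglycans are proteins that carry long sulfated sugar chains. Heparan sulfate chains start from a short linker built on a serine of the core protein, are extended by the paired enzymes EXT1 and EXT2, and are then trimmed and sulfated, first by NDST enzymes. Syndecans carry such chains on the cell surface, where the chains hold chemokines and growth factors, and serglycin carries chains inside the granules of blood cells, where it packs proteases. Heparanase, encoded by HPSE, cuts heparan sulfate chains, and lysosomal enzymes finish their breakdown.

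SDC1 and HPSE differed in opposite directions, but SDC1 was chosen for its fall. HPSE entered the test only through its amiodarone libraries, so nothing is read from this contrast. A stretch before the transcription start of each gene is printed here so that the letters can be seen beside the values. Both are RefSeq windows (GRCh38.p14, minus strand) running from 250 bases before to 50 bases after an annotated start. The SDC1 window lies at chr2:20225081-20225380 and the HPSE window at chr4:83335104-83335403. Capitals mark matches on either strand to the TATA box (TATAAA), the CCAAT box (CCAAT), the GC box (GGGCGG), an E-box (CACGTG) or the cyclic AMP element (TGACGTCA).
SDC1: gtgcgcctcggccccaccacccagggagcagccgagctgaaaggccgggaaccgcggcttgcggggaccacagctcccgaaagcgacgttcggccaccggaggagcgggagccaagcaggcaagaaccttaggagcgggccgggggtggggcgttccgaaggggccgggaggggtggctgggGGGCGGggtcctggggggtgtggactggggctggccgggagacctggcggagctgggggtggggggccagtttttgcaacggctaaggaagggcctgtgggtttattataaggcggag
HPSE: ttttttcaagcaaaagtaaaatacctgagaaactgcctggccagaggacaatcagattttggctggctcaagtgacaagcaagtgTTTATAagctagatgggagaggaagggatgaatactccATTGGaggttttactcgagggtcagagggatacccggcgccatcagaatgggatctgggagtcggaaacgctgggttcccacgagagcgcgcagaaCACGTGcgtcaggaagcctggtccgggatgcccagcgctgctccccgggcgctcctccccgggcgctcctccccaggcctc
The SDC1 window held 1 match to GGGCGG, which 45.0% of 35116 such windows hold. The HPSE window held 1 match each to TATAAA (11.5% of windows), CCAAT (34.6%) and CACGTG (7.26%), and no matches overlapped each other. RefSeq lists a further start for SDC1, whose window also held 1 match to GGGCGG. The 2 other HPSE windows held no TATAAA and no CACGTG, but 1 match to CCAAT and 2 to GGGCGG each. The start used in these cells was not measured. Windows were at hand for 6 of the 10 members. These matches describe the letters only.

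Libraries were alike within a group, but genes detected and summed values differed between the groups. The unit is not named in the table, but the values have the form of RPKM, read counts scaled by transcript length and library size. Their steps put the depth at roughly 16000000 to 16200000 reads or fragments per amiodarone library and 17700000 to 18500000 per control library. Only 45.7% to 53.4% of low values lay within 0.15 of a whole step, so the depth difference between the groups is not established. Genes with a value of at least 1 numbered 11306 to 11323 after amiodarone and 11129 to 11157 in controls. The values of a library summed to 568654 to 574483 after amiodarone and to 534486 to 539030 in controls. Log2 values correlated at 0.9975 to 0.9982 within a group and at 0.959 to 0.96 between groups. MPO, ELANE, PRTN3, AZU1, CTSG and CD33, which mark promyelocytes, were all present. In bulk RNA, fewer cells of a kind and less RNA per cell cannot be told apart. Nothing in the labels ties the libraries to separate cultures, so the spread that p-values rest on may be technical.

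Differences between the groups were widespread, which sets the scale for every count below. Genes that reached a value of 1 in 3 or more libraries were tested with limma on log2(value + 1), and an adjusted p under 0.05 was taken as a call. Of 11445 tested genes 78.3% were called, 33.5% higher and 44.8% lower. The libraries of the groups did not overlap in 79.3% of tested genes, with amiodarone higher in 34.0% and lower in 45.3%. Calls of at least 2-fold on this scale were rarer, at 5.15% of tested genes, 2.55% higher and 2.6% lower. Of the 10 members 6 were tested, 3 higher (SDCBP, SRGN and HPSE) and 3 lower (SDC1, EXT2 and NDST1), and none of the 6 overlapped between groups. SDC1 was chosen for its fall and HPSE reached the minimum only in the amiodarone libraries, so nothing is read from these counts. On log2(value + 1), SDCBP and SDC1 were past 2-fold; by the ratio of group means HPSE was as well.

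SDC1, the gene of syndecan-1 (CD138), was the one syndecan with more than trace RNA, and it was far lower after amiodarone. Its value was 6.33, 5.5 and 5.88 in the amiodarone libraries, against 26.0, 26.0 and 25.9 in the control libraries. The groups lay far apart, and the control libraries were nearly identical. The means were 5.90 ± 0.415 and 26.0 ± 0.0551 (SD, n = 3 each), 4.40-fold lower after amiodarone. The log2 fold change on log2(value + 1) was -1.97 with a standard error of 0.0485. In order of mean level among all 17911 genes, SDC1 stood at place 7629 after amiodarone and at place 2971 in controls. SDC1 occupies chr2:20200797-20225433 (minus strand; GENCODE 29, GRCh38), and no annotated exon of another gene overlaps its exons. Outside this study SDC1 is best known as a marker of plasma cells. The other 6 plasma cell markers (TNFRSF17, JCHAIN, MZB1, IRF4, PRDM1 and CD38) were under 1 in every library.

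The other syndecan genes were at trace level in both groups. None reached the minimum of 1 in 3 libraries, so they were not among the genes tested. SDC2, the gene of a syndecan of fibroblasts and endothelium, had values of 0.16, 0.16 and 0.19 after amiodarone, against 0.15, 0.2 and 0.13 in controls. SDC3, the gene of a syndecan of the nervous system, had 0.29, 0.23 and 0.25 after amiodarone, against 0.19, 0.25 and 0.17 in controls. The groups overlapped in both genes. SDC4, the gene of a widely expressed syndecan of focal adhesions, had 0.19, 0.19 and 0.1 after amiodarone, against 0.04, 0.09 and 0.02 in controls. Its groups did not overlap, but at the estimated depth all 6 SDC4 values stand for about 0.925 to 8.04 reads each. In the fit that kept every gene above 0, SDC4 had a log2 fold change of 0.14 (limma, adjusted p = 0.0201). SDC2, SDC3 and SDC4 occupy chr8:96493351-96611780 (plus strand), chr1:30869467-30908761 (minus strand) and chr20:45325288-45348424 (minus strand). Their summed value was 0.587 ± 0.0503 after amiodarone and 0.413 ± 0.114 in controls (SD, n = 3 each). SDC1 therefore made up 91.0% ± 0.577 of the summed syndecan value after amiodarone and 98.4% ± 0.421 in controls.

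**Figure D1:**
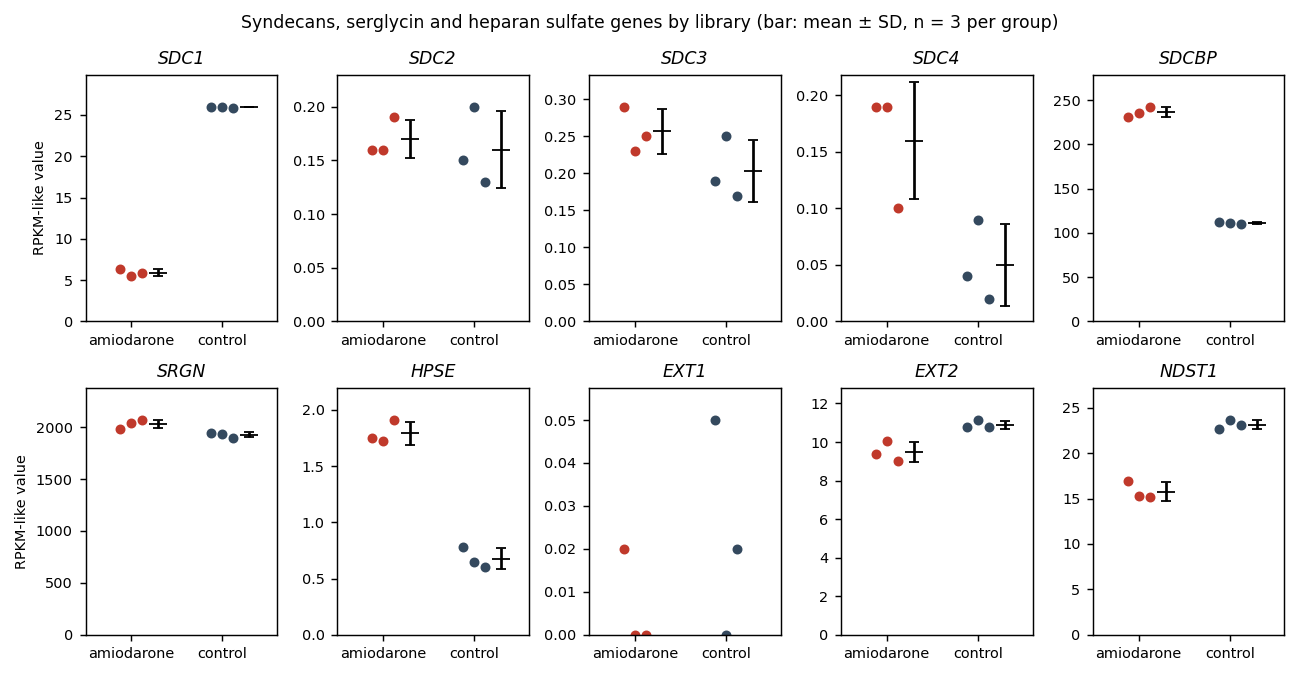
RPKM-like value (linear axis from 0, own scale per panel) of the 10 genes in the 3 amiodarone and 3 control libraries, with the mean ± SD beside the points except for EXT1, which is listed at 0 in some libraries. SDC1 sits near 6 after amiodarone and near 26 in controls, SDCBP and HPSE are higher after amiodarone, SRGN hardly differs, and SDC2, SDC3, SDC4 and EXT1 stay under 0.3.

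SDCBP, whose protein syntenin-1 binds the cytoplasmic tails of syndecans and takes part in exosome formation, rose after amiodarone. Its value was 231, 235 and 243 in the amiodarone libraries, against 112, 111 and 109.7 in the control libraries. The lowest amiodarone library was above the highest control library. The means were 236 ± 5.69 and 111 ± 1.37 (SD, n = 3 each), a 2.13-fold rise. The log2 fold change was 1.08 (95% interval 1.03 to 1.14; limma, adjusted p = 4.86e-11). The value of SDCBP was 40.2 ± 3.25 times that of SDC1 after amiodarone and 4.28 ± 0.0454 times in controls. SDCBP occupies chr8:58552924-58582860 (plus strand). Its processed pseudogenes SDCBPP1, SDCBPP2 and SDCBPP3 each match 24.6% to 24.9% of its longest coding transcript at 89.4% to 94.4% identity, and how reads that fit several places were counted is not given in the sources used here. No other member had such a match of at least 85% identity over 200 bases.

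Of 15 tested genes in the list of syndecan partners and sheddases, which includes SDCBP, 12 rose, none fell and 3 were not called (limma, adjusted p under 0.05). Over all tested genes 33.5% were called higher and 44.8% lower. The median log2 fold change of this list was 0.27, against -0.06 over all tested genes. With each library scaled to the same sum, 9 rose and 1 fell. The list takes in enzymes that cut syndecan ectodomains from the cell surface. MMP9, a gelatinase, rose 1.82-fold to 37.3 ± 2.44 after amiodarone, against 20.5 ± 0.883 in controls (SD, n = 3 each). An annotated antisense RNA, SLC12A5-AS1, lies opposite 18.4% of the exonic bases of MMP9. The membrane proteases ADAM10 (28.6 ± 1.38 after amiodarone, 20.7 ± 0.93 in controls) and ADAM17 (24.4 ± 0.544 and 20.1 ± 1.12) rose 1.38-fold and 1.21-fold. TIMP1, a secreted inhibitor of matrix metalloproteinases, rose 1.36-fold (311 ± 7.14 after amiodarone, 228 ± 2.61 in controls). In limma these 4 genes passed with adjusted p-values up to 1.76e-04. PDCD6IP, which encodes the syntenin partner ALIX and was named after its value was seen, had 43.8 ± 0.676 after amiodarone and 42.7 ± 0.943 in controls and was not called (limma, log2 fold change 0.04, adjusted p = 0.289).

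SRGN had by far the most RNA of the 10 genes and hardly differed between the groups. Its value was 1986, 2037 and 2069 after amiodarone, against 1944, 1937 and 1899 in controls. The groups did not overlap, as in 79.3% of all tested genes, yet the gap between them was small. The means were 2031 ± 41.5 and 1927 ± 24.7 (SD, n = 3 each), 1.05-fold higher after amiodarone. The log2 fold change was 0.08 (95% interval 0.03 to 0.12; limma, adjusted p = 0.00823). Its direction rests on the scaling, since the log2 fold change was -0.015 (adjusted p = 0.536) with each library scaled to the same sum. The call also ended in a fit without a variance trend (adjusted p = 0.0781). As a share of all summed values SRGN made up 0.356% ± 0.00913 after amiodarone and 0.359% ± 0.0042 in controls. SRGN stood at place 51 of 17911 by mean level after amiodarone and at place 48 in controls. It occupies chr10:69088106-69104811 (plus strand).

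Of the genes listed here as granule proteins stored with serglycin, more fell than rose, as over all tested genes. SRGN stayed level within 1.05-fold. Of 11 tested genes in this list 7 fell and 4 rose, beside 44.8% lower and 33.5% higher over all tested genes. The median log2 fold change of the list was -0.91, against -0.06 over all tested genes. With no filter, which brings in the 6 genes at trace level, the median was -0.07. PRTN3, the gene of proteinase 3, fell 4.41-fold to 107 ± 3.01 after amiodarone, against 472 ± 19.6 in controls (SD, n = 3 each). PRG2, the gene of the eosinophil major basic protein, fell 2.90-fold (297 ± 4.47 after amiodarone, 861 ± 6.07 in controls), and 43.0% of its exonic bases are shared with a second annotated gene on the same strand. MPO, the gene of myeloperoxidase, fell 2.28-fold (2613 ± 28.4 and 5962 ± 43.7). CTSG, the gene of cathepsin G, fell 1.90-fold (70.1 ± 0.942 and 133 ± 4.15). In limma these 4 genes passed with adjusted p-values up to 4.21e-10. Among those that rose, named after their values were seen, were the lysozyme gene LYZ (123 ± 3.66 after amiodarone, 102 ± 4.43 in controls), BPI (42.4 ± 1.4 and 36.5 ± 0.0643) and the mast cell tryptase gene TPSAB1 (63.5 ± 7.73 and 32.7 ± 1.34), which has near-identical copies. LYZ has an annotated antisense gene opposite 34.0% of its exonic bases. The fourth, the defensin gene DEFA1, reached the minimum only in the amiodarone libraries and has near-identical copies.

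The summed value of the 17 granule genes was 1.70 ± 0.0534 times that of SRGN after amiodarone and 4.08 ± 0.0815 times in controls (SD, n = 3 each). MPO dominates that sum. Without MPO the ratio was 0.412 ± 0.0147 after amiodarone and 0.984 ± 0.022 in controls, so the remaining sum showed a gap of the same direction. PRG2 and PRTN3 were the largest of the remaining genes in controls, while LYZ, BPI, TPSAB1 and DEFA1 rose. Markers of cell state moved beside these values. The summed value of 8 promyelocyte markers was 3179 to 3235 after amiodarone and 7023 to 7146 in controls, and 5 of them are also in the granule list. MPO makes up most of that sum. Of the 8 markers 6 fell, MYB rose (124 ± 3.64 after amiodarone, 112 ± 0.873 in controls), and CD33 was not called (95.5 ± 3.55 and 91.7 ± 2.12). Of 8 monocyte and macrophage markers 4 were tested and all 4 rose, among them ITGAM. CSF1R, which did not reach the minimum in 3 libraries, was lower, at 0.5, 0.56 and 0.61 after amiodarone, against 1.26, 0.93 and 1.09 in controls. The list of 8 summed to 91.8 to 95.4 after amiodarone and to 59.0 to 62.1 in controls, while CD14, CD163 and VCAN of that list were under 1 in every library. Mast cell markers summed to 61.5 to 76.8 after amiodarone and to 36.9 to 39.6 in controls, mostly TPSAB1. The part of such markers in the results above was not tested.

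**Figure D2:**
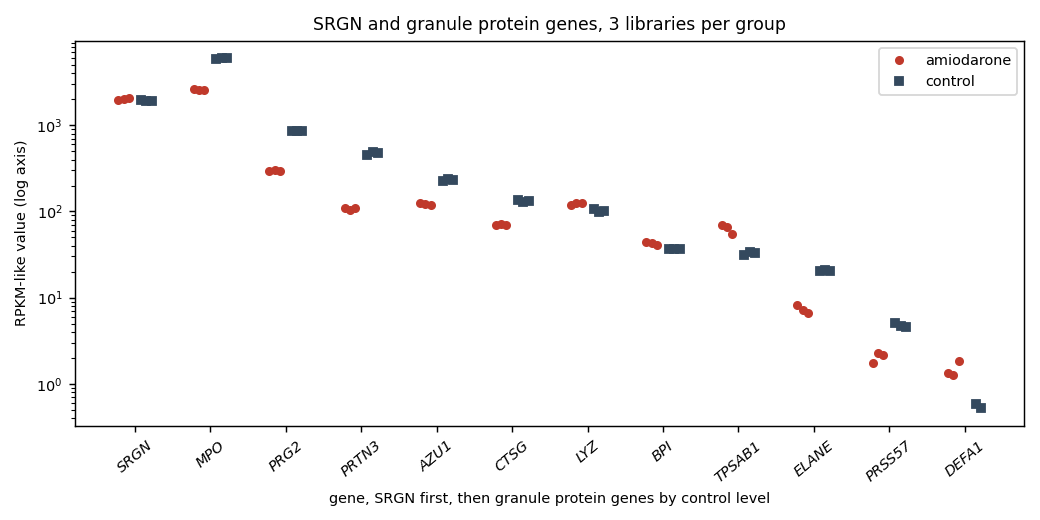
RPKM-like value (log axis) of SRGN and of the 11 tested granule protein genes, in order of control level, with 3 amiodarone libraries (circles) left of 3 control libraries (squares) for each gene. SRGN lies between 1899 and 2069 in both groups, whereas MPO, PRG2, PRTN3, AZU1, CTSG, ELANE and PRSS57 are lower after amiodarone; 1 control library of DEFA1 is listed at 0 and cannot be drawn.

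The polymerase pair of heparan sulfate was uneven. EXT1 was listed at 0.02, 0 and 0 after amiodarone and at 0.05, 0 and 0.02 in controls. At the estimated depth these values stand for at most about 7.65 reads, so a difference in EXT1 was not detectable here. EXT2, whose protein works in a complex with EXT1, had 9.4, 10.0 and 9.04 after amiodarone, against 10.8, 11.1 and 10.8 in controls. All amiodarone libraries lay below all control libraries, by a narrow margin. EXT2 averaged 9.49 ± 0.501 after amiodarone and 10.9 ± 0.208 in controls (SD, n = 3 each), and its log2 fold change was -0.18 (95% interval -0.29 to -0.08; limma, adjusted p = 0.00457). EXT1 occupies chr8:117794490-118111853 (minus strand) and EXT2 chr11:44095549-44245429 (plus strand).

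Genes of the linker and of chain extension fell together. The linker of xylose, galactose and glucuronic acid is shared by heparan and chondroitin sulfate. Of the 12 genes of this list all 10 that were tested fell and none rose (limma, adjusted p under 0.05), with a median log2 fold change of -0.50 against -0.06 over all tested genes. Over all tested genes 44.8% were called lower. PXYLP1, a xylose phosphatase gene, reached the minimum only in control libraries and so had to be lower. B3GALT6, the gene of the second galactose transferase, fell 2.5-fold to 7.33 ± 0.416 after amiodarone, against 18.3 ± 0.26 in controls (SD, n = 3 each). Its amiodarone libraries had 6.93, 7.29 and 7.76 and its control libraries 18.2, 18.6 and 18.2, with no overlap. XYLT2 (5.30 ± 0.224 after amiodarone, 10.04 ± 0.42 in controls) and XYLT1 (7.83 ± 0.166 and 11.3 ± 0.205), the genes of the xylose transferases that start the linker, fell 1.90-fold and 1.44-fold. B3GAT3, the gene of the glucuronic acid transferase that ends the linker, fell 1.73-fold (18.2 ± 1.98 and 31.6 ± 0.471). In limma these 4 genes passed with adjusted p-values up to 1.67e-06. The list kept at least 8 called lower and none higher in every alternative run, and EXT2 had the smallest change of the 10.

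NDST1, whose protein removes acetyl groups from the new chain and sulfates it, fell after amiodarone. Its value was 16.9, 15.3 and 15.1 after amiodarone, against 22.6, 23.6 and 23.1 in controls. The highest amiodarone library was well below the lowest control library. The means were 15.8 ± 1.01 and 23.1 ± 0.501 (SD, n = 3 each), 1.47-fold lower after amiodarone. The log2 fold change was -0.53 (95% interval -0.63 to -0.42; limma, adjusted p = 1.32e-06). The value of NDST1 was 1.67 ± 0.141 times that of EXT2 after amiodarone and 2.12 ± 0.0185 times in controls. NDST1 occupies chr5:150485818-150558211 (plus strand), and 0.7% of its exonic bases lie opposite NDST1-AS1.

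Genes of modification enzymes that the filter left free to go either way fell or were not called. Of 7 tested genes in the modification list, NDST1 included, 4 fell, 2 rose and 1 was not called. Over all tested genes 44.8% were called lower and 33.5% higher. HS6ST1, a 6-O-sulfotransferase gene, fell 1.44-fold (61.6 ± 1.05 after amiodarone, 88.6 ± 1.13 in controls; limma, adjusted p = 1.63e-08). NDST2 fell 1.19-fold (9.22 ± 0.22 and 10.9 ± 1.08; adjusted p = 0.00688 with limma), though 82.9% of its exonic bases are shared with a second annotated gene on the same strand. The rest were named after their values were seen. The epimerase gene GLCE fell 2.30-fold (1.34 ± 0.0513 after amiodarone, 3.07 ± 0.199 in controls). HS6ST3 (1.35 ± 0.0902 and 0.483 ± 0.0451) and HS3ST3B1 (1.23 ± 0.112 and 0.683 ± 0.0603) rose. Both reached the minimum only in the amiodarone libraries and so had to be higher. HS2ST1, a 2-O-sulfotransferase gene, had 7.61 ± 0.169 and 7.54 ± 0.215 and was not called (log2 fold change 0.01, 95% interval -0.09 to 0.12; limma, adjusted p = 0.808).

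HPSE was low in both groups and rose after amiodarone. Its value was 1.75, 1.72 and 1.91 after amiodarone, against 0.78, 0.65 and 0.6 in controls. The groups did not overlap, and the means were 1.79 ± 0.102 and 0.677 ± 0.0929 (SD, n = 3 each), 2.65-fold higher after amiodarone. HPSE reached the minimum of 1 only in the amiodarone libraries, so a gene tested on that footing had to be higher there. In the fit that kept every gene above 0, its log2 fold change was 0.74 (limma, adjusted p = 4.70e-05). With the filter kept, a pseudocount of 0.1 in place of 1 gave HPSE a log2 fold change of 1.29. At the estimated depth its values stand for about 49.4 to 143 reads. HPSE occupies chr4:83292461-83335153 (minus strand). The paralogue HPSE2 was under 1 in every library.

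Lysosomal enzymes of heparan sulfate breakdown went both ways. Of 9 tested genes in this list, HPSE included, 5 rose and 4 fell, beside 33.5% higher and 44.8% lower over all tested genes. The filter fixed the direction of HPSE among the 5. SGSH, the gene of the sulfamidase that removes N-linked sulfate, rose 2.86-fold to 8.34 ± 0.919 after amiodarone, against 2.91 ± 0.147 in controls (SD, n = 3 each; limma, adjusted p = 5.16e-08). IDS, the iduronate sulfatase gene, rose 1.29-fold (15.2 ± 0.505 after amiodarone, 11.8 ± 0.171 in controls; limma, adjusted p = 1.46e-05), and shares 16.5% of its exonic bases with another annotated gene. HGSNAT, the gene of the acetyltransferase of this pathway, fell 1.69-fold (5.11 ± 0.29 and 8.66 ± 0.247). GUSB, the beta-glucuronidase gene, fell 1.22-fold (56.6 ± 1.35 and 69.1 ± 1.48). The median of this list was 0.21, but -0.03 at a minimum value of 5, so the list as a whole had no settled direction.

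**Figure D3:**
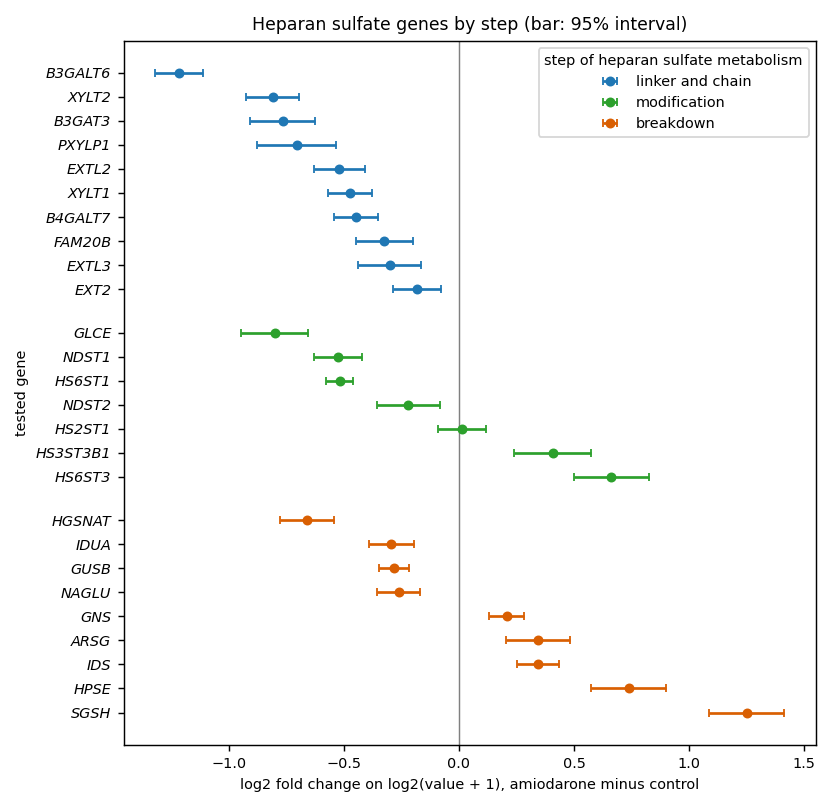
Log2 fold change (amiodarone minus control, on log2(value + 1)) of each tested heparan sulfate gene, grouped into linker and chain extension, modification and breakdown, with 95% intervals from limma. All 10 linker and chain genes lie left of 0, and modification and breakdown genes range from GLCE at -0.80 to SGSH at 1.25. The filter fixed the side of PXYLP1 (left) and of HS6ST3, HS3ST3B1 and HPSE (right).

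Other proteoglycan core genes went both ways. Of 11 tested genes in the core protein list, SDC1 and SRGN included, 5 rose, 5 fell and 1 was not called. The 5 that fell include SDC1, which was chosen for its fall. The 5 that rose include SRGN, whose direction rests on the scaling. Over all tested genes 33.5% were called higher and 44.8% lower. CD44, a hyaluronan receptor that can carry such chains, rose 1.80-fold to 174 ± 2.36 after amiodarone, against 96.7 ± 1.6 in controls (SD, n = 3 each). CD74, the invariant chain of HLA class II and a part-time proteoglycan, rose 1.45-fold (71.7 ± 1.45 after amiodarone, 49.5 ± 0.717 in controls). The secreted heparan sulfate proteoglycan genes AGRN (agrin) and HSPG2 (perlecan) fell 1.62-fold (5.69 ± 0.172 and 9.24 ± 0.459) and 1.44-fold (3.49 ± 0.132 and 5.02 ± 0.0917). In limma these 4 genes passed with adjusted p-values up to 2.68e-05. Of the 23 genes of the list, 12 were under 1 in every library, among them the other syndecans.

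Chondroitin sulfate, the chain type that serglycin mainly carries in myeloid cells, has its own enzymes. Of 8 tested genes 3 rose and 5 fell, beside 33.5% higher and 44.8% lower over all tested genes. CSGALNACT2, the gene of an enzyme that commits the linker to chondroitin sulfate, rose 2.83-fold to 101 ± 2.63 after amiodarone, against 35.6 ± 0.924 in controls (SD, n = 3 each; limma, adjusted p = 2.46e-11). Its amiodarone libraries had 97.7, 102 and 102 and its control libraries 36.3, 34.6 and 35.9, with no overlap. The sulfotransferase genes CHST7 (6.64 ± 0.294 after amiodarone, 2.32 ± 0.168 in controls) and CHST11 (37.4 ± 0.956 and 25.0 ± 0.329) rose 2.87-fold and 1.49-fold. CHPF2, the gene of a chain-extending factor, fell 1.30-fold (28.2 ± 0.281 and 36.7 ± 1.5). The median of the list was -0.24, but 0.04 with no filter.

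The supply of building blocks was split evenly. Of 12 tested genes 5 rose, 5 fell and 2 were not called, beside 33.5% higher and 44.8% lower over all tested genes. SLC35B2, the Golgi transporter gene for the sulfate donor PAPS, fell 1.57-fold to 26.1 ± 0.783 after amiodarone, against 41.0 ± 0.607 in controls (SD, n = 3 each). PAPSS1, the gene of an enzyme that makes PAPS, rose 1.19-fold (31.1 ± 0.812 after amiodarone, 26.1 ± 0.316 in controls). UGP2, which makes UDP-glucose, rose 1.22-fold (41.3 ± 0.98 and 33.9 ± 0.498), and SLC35A3, a UDP-N-acetylglucosamine transporter gene, 1.30-fold (7.72 ± 0.356 and 5.95 ± 0.0981). In limma these 4 genes passed with adjusted p-values up to 1.13e-04. The median was 0.0074 and had no settled sign, at -0.08 with each library scaled to the same sum.

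**Figure D4:**
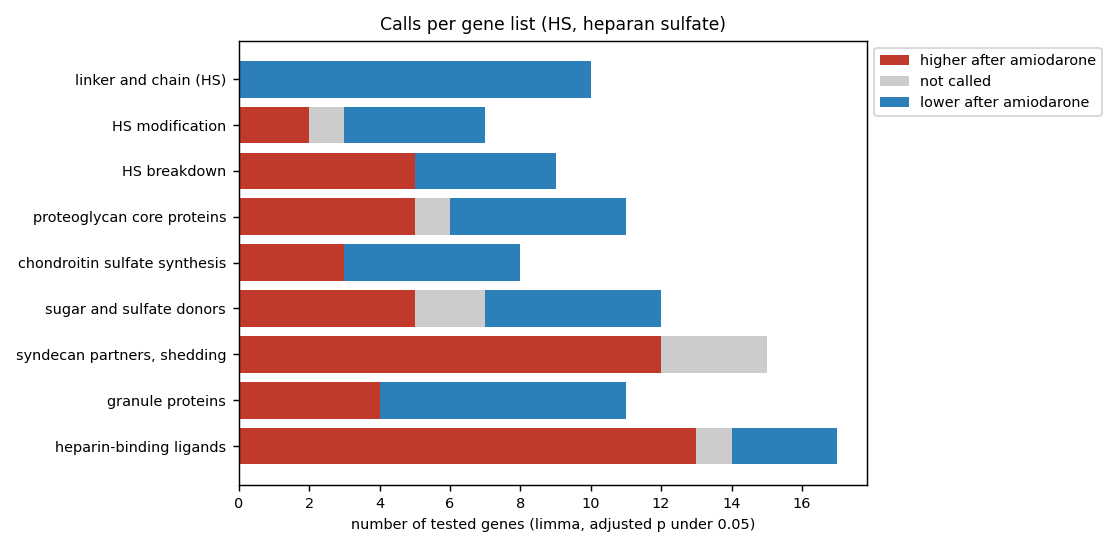
Number of tested genes called higher, not called or called lower after amiodarone (limma, adjusted p under 0.05) in each of 9 gene lists; HS is heparan sulfate. The linker and chain list is lower in 10 of 10 and the list of syndecan partners and shedding higher in 12 of 15. Over all tested genes 33.5% were called higher and 44.8% lower. The 10 include PXYLP1, which the filter fixed as lower, and the 12 include SDCBP. Lists were chosen with earlier results of these data known.

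The tested genes with the pattern nearest to SDC1 were HSPA6, PAQR4, FEN1, MCM4 and LPO, by distance over the 6 libraries in log2(value + 1) relative to the control mean. HSPA6, a heat shock protein gene, was nearest at a distance of 0.099 (3.61 ± 0.367 after amiodarone, 16.8 ± 0.28 in controls). FEN1 and MCM4 are genes of DNA replication, at distances of 0.183 and 0.193. For SRGN the nearest were CNBP, FNBP1, SINHCAF, FBXO7 and HSD17B12, with distances of 0.0316 to 0.0366. With 2 groups such a distance mostly compares the size of the group difference.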

How the data were processed

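Total RNA from TRIzol went into stranded mRNA libraries, per the labels' protocols. GRCh38.p12, featureCounts, STAR 2.5.3a and fastp 0.23.4 appear in the submitters' processing notes, with no role given. The annotation, the strand setting and the handling of multi-mapped reads: not given in the sources used here. The table the authors deposited has 1 expression column per library and names no unit. The deposited values have the form of RPKM: they are not whole, and low values step with transcript length (45.7% to 53.4% lay within 0.15 of a whole step, too few to recover whole reads, which makes the depth a rough figure).

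Values were used as deposited. The test took genes that reached 1 in 3 or more libraries (11445; 6466 did not), 6 of the 10 members among them. limma 3.58.1 in R 4.3.3 (lmFit, eBayes with trend) was run on log2(value + 1) with Benjamini-Hochberg adjustment over all tested genes, at a threshold of 0.05; this scale understates the change of low genes. Folds of single genes are ratios of group means. Simulated data with known changes were used to check the fit. Symbols that had become dates (26) were restored by Entrez ID. Coordinates are from GENCODE 29; near-identical copies were searched for the members only.

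Members and lists were chosen with earlier results of these data known. Named genes are the members, up to 4 per list with the smallest adjusted p and a mean of at least 5, and the 5 nearest patterns to SDC1 and to SRGN. Alternatives changed the pseudocount, filter, scaling, variance model and libraries, or added a replicate block.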

Additional observations from a re-analysis of the deposited data

How the results depend on the processing

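SDCBP, EXT2 and NDST1 kept their direction and their side of the threshold in all 15 alternatives, with log2 fold changes of 0.99 to 1.12, -0.27 to -0.15 and -0.61 to -0.49. SDC1 ranged from -2.12 to -1.92 and HPSE, not tested at a minimum value of 5, from 0.69 to 1.29; the choice of SDC1 and the filter on HPSE fixed their direction, so these ranges show no stability. SRGN turned to -0.015 with equal sums and lost its call without a variance trend (0.076, adjusted p = 0.0781). The 34 named list genes kept their calls wherever they were tested; HSPG2 was not tested at a minimum value of 5. The median log2 fold change of all tested genes, -0.06, was -0.070 at a pseudocount of 0.1, 0.0018 without a filter, -0.092 at a minimum value of 5, -0.027 with median of ratios and -0.14 with equal sums. That of the list genes other than members, 0.10, was 0.019 without a filter, 0.013 at a minimum value of 5 and 0.014 with equal sums. A replicate block gave 3748 genes higher and 5022 lower, against 3832 and 5127. Same-numbered libraries did not deviate together (correlations -0.155, -0.0182 and -0.0231). With 3 libraries per group this cannot show whether they were handled together. Without a filter, genes called higher numbered 4 for modification (2 with it), 8 for core proteins (5) and 7 for chondroitin sulfate (3). At a minimum value of 5 they numbered 0, 3 and 3 in those lists and 8 for heparin-binding ligands (13), while genes called lower numbered 3 for core proteins (5) and 3 for donor supply (5). Donor supply also had 3 lower without amiodarone replicate 1 and without control replicate 1. Medians turned sign for modification (-0.22, 0.013 without a filter), core proteins (0.076, -0.019 at a minimum value of 5 and -0.015 with equal sums) and donor supply (0.0074, -0.065 without a filter). Those of breakdown (0.21, -0.028 at a minimum value of 5) and chondroitin sulfate (-0.24, 0.037 without a filter) also turned sign. The cause was not tested. Depth limits SDC2, SDC3, SDC4 and EXT1, whose values stand for about 30 reads or fewer each.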

Other observations

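Genes of heparin-binding ligands, the chemokines and growth factors that heparan sulfate and serglycin chains can hold, were mostly higher after amiodarone. Of 17 tested genes 13 rose, 3 fell and 1 was not called (limma, adjusted p under 0.05), with a median log2 fold change of 0.78 against -0.06 over all tested genes. PDGFA, AREG and CXCL2, all among the 13, reached the minimum of 1 only in the amiodarone libraries and so had to be higher. Over all tested genes 33.5% were called higher and 44.8% lower. The median of the list ranged from 0.39 with no filter to 1.29 at a minimum value of 5. The chemokine genes CXCL8 (1786 ± 91.8 after amiodarone, 239 ± 4.06 in controls), CCL2 (867 ± 2.07 and 177 ± 7.17), CCL3 (102 ± 2.67 and 12.8 ± 0.747) and CCL5 (771 ± 19.1 and 385 ± 5.56) rose 7.48-fold, 4.89-fold, 8.01-fold and 2.00-fold (SD, n = 3 each). CCL3 has a near-identical copy and an annotated antisense gene opposite 74.6% of its exonic bases. The platelet factor gene PF4, a chemokine known to be stored with serglycin, was under 1 in every library. Protein, sugar chains and shed syndecan were not measured in these libraries.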
